A study of Mus musculus with 20 samples.

Results

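Tgm1, Tgm2, Tgm3 and Tgm5 were taken here as the epidermal transglutaminase genes, although Tgm2 is widely expressed. Their open chromatin was followed through 10 lists of ATAC-seq peaks from mouse tail epidermis. The members were chosen by measured peak positions: every peak of a list whose summit lay in the mm10 span of one of the 4 genes, or within 50 kb of either end of that span, was taken, and its presence and signal value were then read across the lists. The 4 genes are 4 of 21883 protein-coding genes of the annotation. They held 540 of the 924275 peaks of the 10 lists, of which 217 belonged to Tgm1, 50 to Tgm2, 175 to Tgm3 and 98 to Tgm5. Overlapping peaks of all lists were merged into sites, which gave 66 of 101406 sites: 18 near Tgm1, 9 near Tgm2, 26 near Tgm3 and 13 near Tgm5. Presence and signal value are thus what the rule itself used, and they are given below as a description, with no test.

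ATAC-seq reads open chromatin as the places where Tn5 transposase can insert adapters. All groups carried the genotype Lrig1CreER/Rosa-TdTomato, in which the Lrig1 promoter drives an inducible Cre. A red reporter stays on in the cells where Cre has acted and in their descendants. The cells were sorted as Lrig1 GL Sca1+ epidermal cells. The wound course had 4 groups: homeostasis, 1 week after the first wound, 8 weeks after the first wound, and 1 week after the second wound. A second set was treated with PRT4165, a compound that blocks the ubiquitin ligase of Polycomb repressive complex 1, which modifies histone H2A, with wounding and UVB, with UVB alone, or with vehicle; the titles give PRT4165 and vehicle the time point of homeostasis. The last 2 groups were cultured cells, from a distal memory region and from a control (non-memory) region, 8 weeks after the first wound. The sources used here do not give age, sex or whether libraries came from separate animals. Each group had 2 libraries and 1 deposited list made from both, so the spread between replicates is unknown for every value, no difference was tested, and the 95% Wilson intervals cover counting error only.

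Transglutaminases join glutamine and lysine side chains of neighbouring proteins by an isopeptide bond that most proteases do not cut. In the uppermost layers of the epidermis and in the hair follicle this reaction builds the cornified envelope, the protein shell that replaces the plasma membrane of a dying keratinocyte. Tgm1 encodes the membrane-anchored keratinocyte enzyme, Tgm3 an enzyme of the upper epidermis and the hair follicle that is activated by proteolysis, Tgm5 a further enzyme of the upper epidermal layers, and Tgm2 the widely expressed tissue transglutaminase.

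The promoters of the 3 genes whose starts could be set beside the peaks are shown because peaks at these starts came and went between lists, as described further on. Each sequence is RefSeq sequence of GRCm38.p6, the assembly of mm10, from 250 bases before to 50 bases after the start, 5′ to 3′ on the strand of the gene, and capitals mark matches to the motifs searched. They lie at chr14:55713443-55713742 (minus strand, the upstream of the 2 listed starts of Tgm1), chr2:130012090-130012389 (plus strand, Tgm3) and chr2:121085792-121086091 (minus strand, Tgm5).
Tgm1: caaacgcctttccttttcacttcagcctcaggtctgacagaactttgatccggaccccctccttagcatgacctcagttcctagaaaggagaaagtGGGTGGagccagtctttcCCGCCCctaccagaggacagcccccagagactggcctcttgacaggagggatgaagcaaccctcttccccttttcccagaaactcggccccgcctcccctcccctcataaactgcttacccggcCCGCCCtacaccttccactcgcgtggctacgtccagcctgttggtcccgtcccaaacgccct
Tgm3: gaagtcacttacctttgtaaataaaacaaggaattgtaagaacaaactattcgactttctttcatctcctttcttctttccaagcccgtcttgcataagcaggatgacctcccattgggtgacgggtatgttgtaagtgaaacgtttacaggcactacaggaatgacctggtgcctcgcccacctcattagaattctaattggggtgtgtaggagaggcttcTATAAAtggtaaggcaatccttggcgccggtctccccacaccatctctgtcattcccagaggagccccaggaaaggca
Tgm5: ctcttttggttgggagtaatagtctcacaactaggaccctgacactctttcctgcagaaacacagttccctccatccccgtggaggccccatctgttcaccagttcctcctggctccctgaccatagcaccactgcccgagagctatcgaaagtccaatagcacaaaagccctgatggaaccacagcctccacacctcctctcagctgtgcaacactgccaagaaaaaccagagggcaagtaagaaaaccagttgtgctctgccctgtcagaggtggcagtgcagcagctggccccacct
The Tgm1 promoter held the Sp1 box GGGCGG at 2 places, 136 and 12 bases upstream of the start, and the KLF CACCC box CCACCC at 1 place, 154 bases upstream, all 3 on the strand opposite to the gene. The Tgm3 promoter held a TATA box, TATAAA, beginning 28 bases upstream of the start. The Tgm5 promoter held none of the 8 motifs searched, which besides these 3 were AP-1 (TGANTCA), CRE (TGACGTCA), GRHL (AACCGGTT), the E-box (CACGTG) and NF-kB, each on both strands. Among 32851 promoters of the same length, 35.7% held the Sp1 box, 31.5% the KLF box, 13.6% the TATA box, 7.81% AP-1, 1.79% CRE, 0.146% GRHL, 7.15% the E-box and 5.55% NF-kB. A match is a run of letters, not a bound site.

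The lists differed in length, which bears on every count below. After overlapping peaks within a list were merged into regions, the wound course held 35195 regions in homeostasis, 49078 at 1 week, 34644 at 8 weeks and 42200 after the second wound. The PRT4165 list held 68411, the wound-and-UVB list 66541, the UVB list 73340 and the vehicle list 70008, against 45714 in cultured distal memory cells and 54188 in cultured control cells. Regions on the Y chromosome numbered 2 to 16 per list. The sort was checked on markers, by a summit within 1 kb of a gene start. Lrig1 had one in all 10 lists and Ly6a, which encodes Sca1, in all but homeostasis and 1 week. Of 6 suprabasal keratinocyte markers, 1 to 2 had one in the cultured lists, with summed signal values of 11.7 to 16.9, and 1 to 4 in the fresh lists, with sums of 12.2 to 32.2; Lor and Flg had none in any list. Of 5 basal keratinocyte markers, 2 to 3 had one in the cultured lists, with sums of 18.4 in both, and 2 to 4 in the fresh lists, with sums of 10.2 to 21.0; Trp63 had none at its listed start in any list. Of 5 macrophage and Langerhans cell markers, 2 had one in each cultured list (sums of 25.1 to 28.7) and 0 to 1 in the fresh lists (sums of 0 to 9.30), and Cd207, Adgre1 and Ptprc had none anywhere. Of 5 T cell markers, 1 had one in each cultured list (sums of 5.64 to 6.40) and 0 in the fresh lists; Cd3e and Cd3d had none anywhere. In the cultured and then the fresh lists, such summits were counted at 4 to 5 and 3 to 5 of 5 sebocyte markers, 3 to 4 and 2 to 5 of 5 bulge markers, 1 and 1 to 3 of 6 fibroblast markers, 1 and 0 to 2 of 5 endothelial markers, 2 and 2 to 3 of 4 melanocyte markers, and 1 and 0 to 2 of 3 Merkel cell markers. The part of list length and of these markers in the results below was not tested.

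Of the 66 transglutaminase sites, 9 were in all 10 lists (13.6%), against 18.8% of all sites of the series. A further 12 were shared by fresh and cultured lists, 31 were in 2 or more fresh lists and no cultured list, 10 were in 1 fresh list and 4 were in cultured lists alone. By position, 25 lay inside the gene's own span, 4 within 1 kb of its own start, 1 at the end of the Tgm2 span, 9 at the start of another gene, 7 in the span of another gene and 20 between genes. Homeostasis held 21 of the 66 sites (31.8%, interval 21.8 to 43.8%), the 1-week list 34 (51.5%, 39.7 to 63.2%), the 8-week list 21 and the second-wound list 29 (43.9%, 32.6 to 55.9%). The PRT4165 list held 39 (59.1%, 47.0 to 70.1%), wound and UVB 50, UVB 50 and vehicle 49 (74.2%, 62.6 to 83.3%). Cultured distal memory cells held 19 (28.8%, 19.3 to 40.6%) and cultured control cells 24 (36.4%, 25.8 to 48.4%). The longest lists held the most sites, while cultured control cells, with more regions than the 1-week and second-wound lists, held fewer of the sites than either. Between 29.0% (second wound) and 45.0% (cultured distal memory) of a list's transglutaminase regions lay above the median signal value of that list. Ranked by the authors' −log10 p instead, the share was 55% with PRT4165, 55% in cultured distal memory cells and 52% in cultured control cells, and 32.3 to 47.6% in the other lists. The signal value is the authors' own enrichment value per peak, used here to rank peaks within a list.

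**Figure D1:**
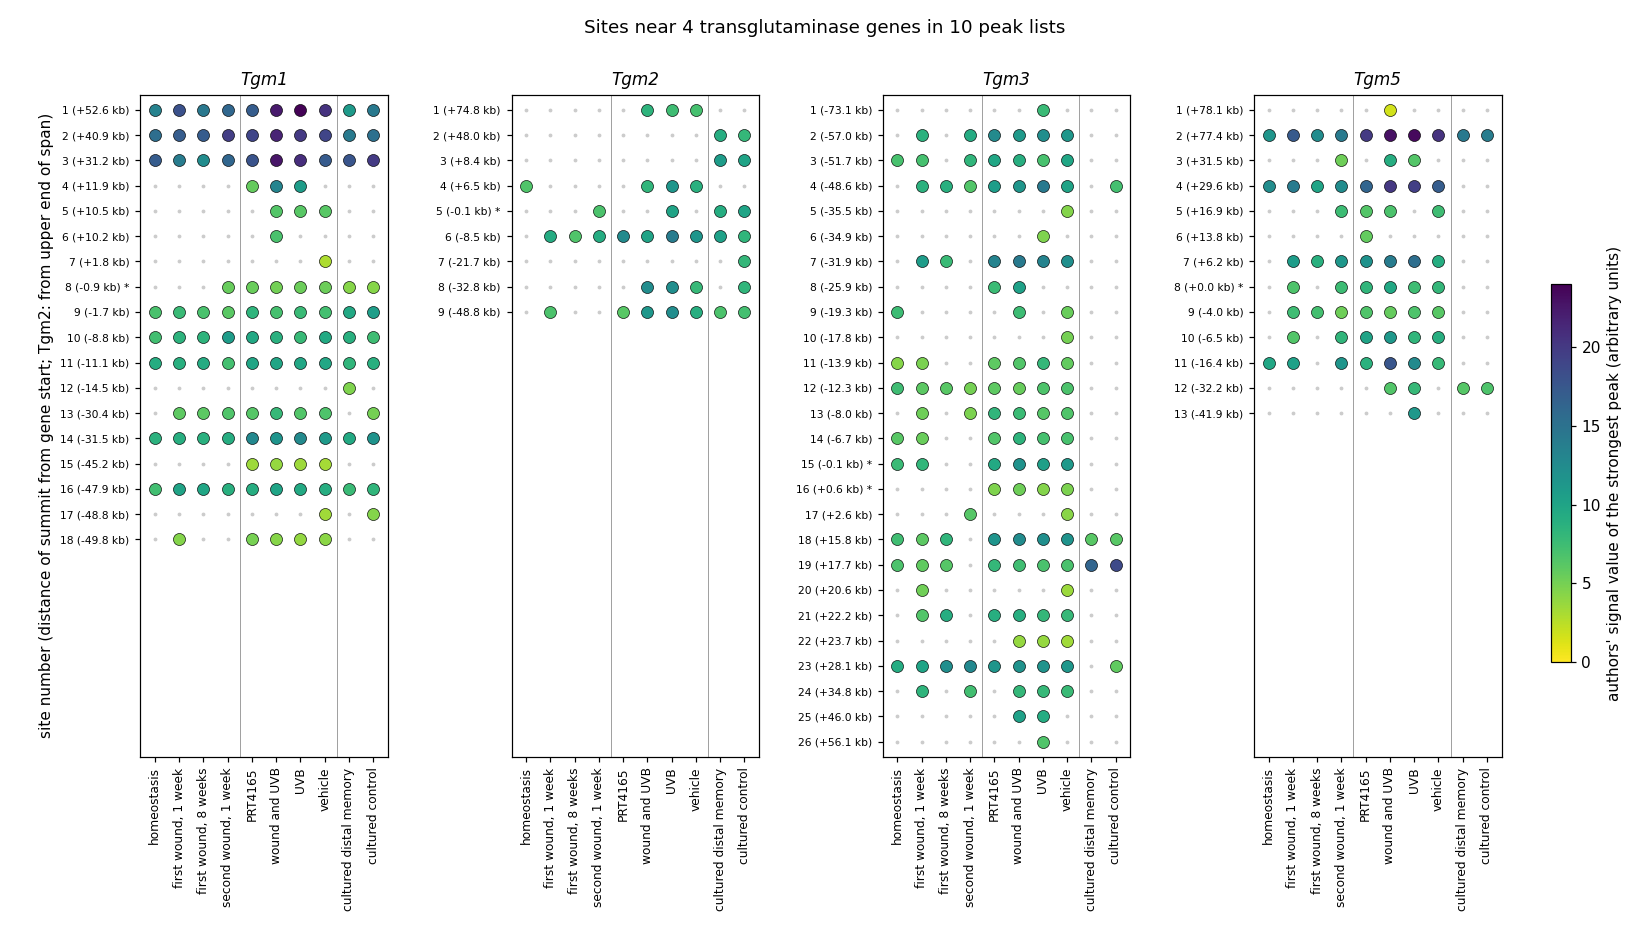
Sites of the 4 genes in the 10 peak lists. Rows are sites numbered along the chromosome, with the distance of the summit from the nearer listed gene start (for Tgm2 from the upper end of the span) and an asterisk at a gene's own start or span end; columns are the lists, filled circles mark presence and their colour the authors' signal value of the strongest peak, and grey dots mark absence. The Tgm1 panel has 8 rows filled across all 10 lists, while the Tgm3 and Tgm5 panels are nearly empty in the 2 cultured columns.

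Tgm1, the membrane-anchored enzyme, lies at chr14:55700009-55713921 among 10 protein-coding neighbours, and its surroundings varied least by the share of sites in every list. Of its 18 sites, 8 were in all 10 lists (44.4%). Of these 8, 5 stood at starts of neighbours: site 1 at Mdp1, site 2 at Gmpr2 and Nedd8, site 3 at Tinf2, site 10 at Rabggta, which encodes a subunit of the enzyme that adds lipid anchors to Rab proteins, and site 14 at Dhrs1 and Nop9. Site 16 lay in the span of the leukotriene receptor gene Ltb4r2. Only 2 of the constant sites lay between genes, site 9 and site 11. Site 9 (chr14:55714709-55715641) had its summit 1674 bp upstream of the Tgm1 start. Its signal value was 6.86 in homeostasis, 7.69 at 1 week, 6.85 at 8 weeks and 6.13 after the second wound. It was 8.35 with PRT4165, 7.06 with wound and UVB, 7.75 with UVB and 7.21 with vehicle. It was 9.59 in cultured distal memory cells and 10.6 in cultured control cells, above all 8 fresh lists. Within the lists that is percentile 50.5 and 61.3 in the cultured cells, against 13 to 39.9 in the fresh lists. Site 11, 11098 bp upstream, ran from 7.18 (second wound) to 9.92 (wound and UVB).

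The Tgm1 start itself had weaker and less constant peaks. Site 8 (chr14:55713198-55714524) covers the upstream start, whose promoter is printed above. No summit lay within 1 kb of that start in homeostasis, at 1 week or at 8 weeks. The strongest peak of the site had 5.59 after the second wound and 5.50 with PRT4165. Its value was 5.12 with wound and UVB, 5.40 with UVB and 5.42 with vehicle. In cultured distal memory cells it was 4.32 and in cultured control cells 4.35. All 7 values lie low in their lists, between percentile 2.70 and 13.9. The nearest summit lay 28 to 498 bp from the start in the PRT4165, wound-and-UVB, UVB and vehicle lists. The distance was 887 bp after the second wound, 518 bp in cultured distal memory and 515 bp in cultured control cells. A window of 500 bp thus leaves 4 of the 7 lists. In those 4 lists the nearest peaks were weaker than the strongest of the site. Peaks within 1 kb of the downstream start include them. These reached 3.28 with PRT4165, 4.39 with wound and UVB, 3.84 with UVB and 3.38 with vehicle. Inside the gene body the sites were few. Site 4, 11.9 kb downstream of the start, had 5.70 with PRT4165, 13.2 with wound and UVB and 10.8 with UVB, and was absent from vehicle and the other 6 lists. Sites 5, 6 and 7 were in 3, 1 and 1 fresh lists, with values of 2.92 to 6.87.

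Tgm3, the proteolytically activated enzyme, lies at chr2:129987794-130050399 in a stretch with 1 protein-coding neighbour, AU015228, whose end just enters the window, and its sites were found mostly in fresh cells. The listed start stands 24546 bp inside the annotated span; 8 sites lay below the span, 7 between its lower end and the start, 9 from the start to the upper end and 2 beyond. None of the 26 sites was in all 10 lists. Of the 15 sites in 4 or more fresh lists, 11 were in neither cultured list (73.3%); the share was 37.8% over all sites of the series and 55.3% over the 4 genes, where it was 21 of 38. At the start, site 15 (chr2:130012094-130012610) had its summit 76 bp upstream, within the promoter printed above. Its signal value was 7.69 in homeostasis and 8.18 at 1 week, and it was absent at 8 weeks and after the second wound. It was 9.48 with PRT4165, 11.9 with wound and UVB, 10.5 with UVB and 11.1 with vehicle, and it was absent from both cultured lists. Thus the start peak was present in 6 of 8 fresh lists and 0 of 2 cultured lists. A weaker neighbour, site 16, stood 577 bp downstream in the PRT4165, wound-and-UVB, UVB and vehicle lists, with values of 4.42 to 5.28. The non-coding gene Gm52561 ends just below the Tgm3 start, and these peaks cannot be told apart by gene.

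Inside and around Tgm3 the other sites were of several kinds. Site 12, 12.3 kb upstream of the start and inside the span, was the only one in all 8 fresh lists and no cultured list; its values ran from 5.04 (second wound) to 7.45 (homeostasis). Site 23 (chr2:130039603-130041145), 28.1 kb downstream, was in 9 lists and was the strongest Tgm3 site in homeostasis, with 9.25, and in the other wound lists except 1 week, with 9.95 at 1 week, 12.2 at 8 weeks and 12.8 after the second wound. It had 5.83 in cultured control cells and 11.3 in vehicle, and was absent from cultured distal memory cells. Site 19 (chr2:130029700-130030279), 17.7 kb downstream, went the other way. Its signal value was 16.3 in cultured distal memory cells and 18.6 in cultured control cells, at percentiles 88.0 and 93.4 of their lists. In the fresh lists it was 6.75 in homeostasis, 5.86 at 1 week, 6.32 at 8 weeks, 8.01 with PRT4165, 7.40 with wound and UVB, 6.88 with UVB and 6.87 with vehicle, at percentiles 13.5 to 36.2, and it was absent after the second wound. Its neighbour site 18, 15.8 kb downstream, was in the same 9 lists with the opposite order: 6.26 in cultured distal memory and 6.28 in cultured control cells, against 6.05 (1 week) to 12.4 (wound and UVB) in the fresh lists, where only 1 week was below the cultured values. The upstream sites 2 (57 kb), 4 (48.6 kb) and 7 (31.9 kb) were absent in homeostasis and present at 1 week, with values of 8.71, 8.68 and 10.8.

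Tgm5, the further upper-layer enzyme, lies at chr2:121046111-121085841 between its relative Tgm7 and Epb42, a member of the family that has lost its catalytic activity. Of its 13 sites, the only 1 in all 10 lists (7.69%) was site 2 at the start of Ccndbp1, a gene 77.4 kb from the Tgm5 start. Of the 8 sites in 4 or more fresh lists, the other 7 were all absent from both cultured lists (87.5%). The strongest of them was site 4 (chr2:121055850-121056449), inside the gene, 29.6 kb downstream of the start. Its signal value was 12.3 in homeostasis, 14.1 at 1 week, 10 at 8 weeks and 12.4 after the second wound. It was 16.3 with PRT4165, 20.1 with wound and UVB, 19.5 with UVB and 17.0 with vehicle, so every fresh list held it, at percentile 56.9 or higher. At the start, site 8 (chr2:121085310-121086032) had its summit 12 bp from the start. It had 6.71 at 1 week, 7.52 after the second wound, 8.27 with PRT4165, 9.63 with wound and UVB, 7.44 with UVB and 8.14 with vehicle. It was absent in homeostasis, at 8 weeks and in both cultured lists. Site 12, 32.2 kb upstream and beyond Tgm7, was the only other Tgm5 site in cultured cells, with 6.33 in cultured distal memory and 6.66 in cultured control cells, against 6.53 with wound and UVB and 7.90 with UVB.

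Tgm2, the tissue transglutaminase, lies at chr2:158116405-158146392 and had the fewest sites, 9, of which none was in all 10 lists. Its distances are measured from the upper end of the span. The lower end had no summit within 1 kb in any list. At the upper end, site 5 (chr2:158145986-158146782) had 9.12 in cultured distal memory cells and 9.98 in cultured control cells, 6.80 after the second wound and 10.1 with UVB, and was absent from the other 6 lists. Of the 5 Tgm2 sites in both cultured lists, 2 were in no fresh list (40.0%), against 19.0% over all such sites of the series; the other 3 genes had no such site, and for the 4 together the count was 2 of 18 (11.1%). These are site 3 (chr2:158137858-158138292), inside the gene, 8364 bp from the upper end, with 10.8 in cultured distal memory and 10.1 in cultured control cells, and site 2, between genes, with 9.0 and 8.06 in the same order. Site 4 (chr2:158139532-158140442), 6533 bp from the upper end and next to site 3, had the reverse: it was absent from both cultured lists, and had 6.60 in homeostasis, 8.33 with wound and UVB, 11.4 with UVB and 8.80 with vehicle. Site 6, 8452 bp beyond the upper end, was in 9 lists and absent from homeostasis alone; its values ran from 6.62 (8 weeks) to 14.0 (UVB).

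**Figure D2:**
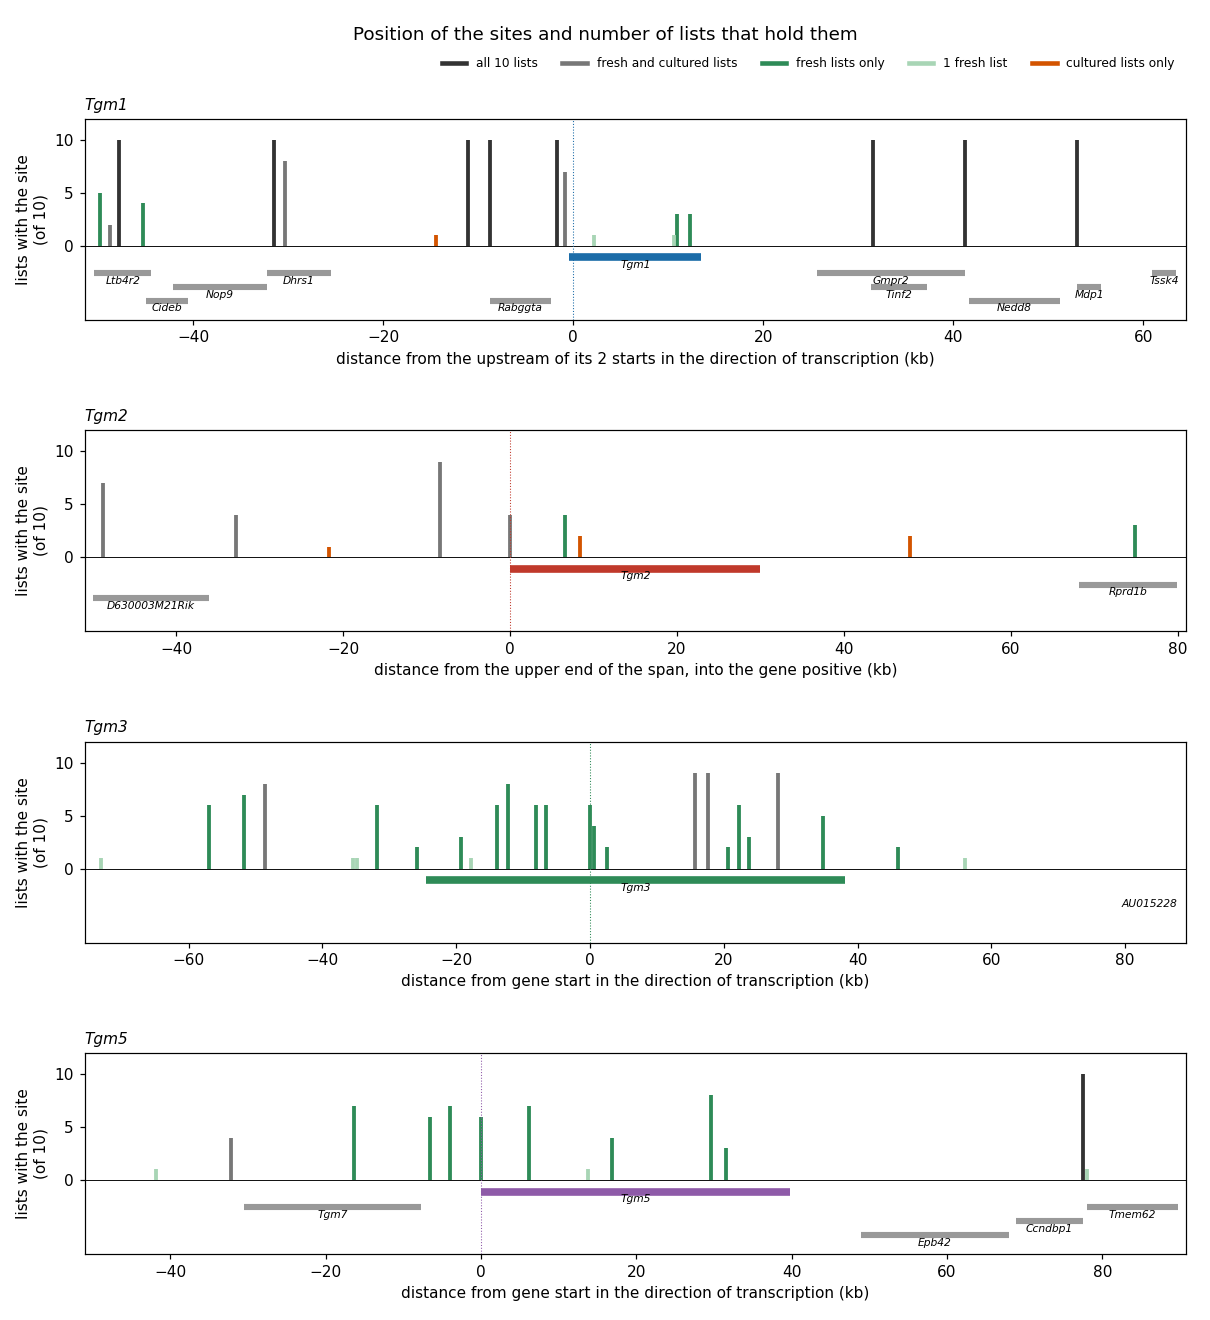
Position of the 66 sites. Each panel is 1 gene with its window of 50 kb to either side; the horizontal axis is the distance in kb from the gene start in the direction of transcription (for Tgm1 from the upstream start, for Tgm2 from the upper end of the span), the height of a line is the number of lists with the site and its colour the kind of lists. Coloured bars are the gene's span and grey bars its protein-coding neighbours; the lines of height 10 in the Tgm1 panel stand mostly at ends of grey bars, and the Tgm3 panel has no line of height 10.

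None of the 3 genes with a listed start had a start peak in every list. Of 17491 protein-coding genes with a listed start, 45.0% had a summit within 1 kb of one in all 10 lists, and 48.8% (8 weeks) to 59.8% (UVB) had one in a single list. Tgm1, Tgm3 and Tgm5 had theirs in 7, 6 and 6 lists. Of 9964 genes with such a summit in 4 or more fresh lists, 4.63% had none in both cultured lists, and Tgm3 and Tgm5 were among them. The genes were chosen with these lists known, so nothing is read from that share.

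**Figure D3:**
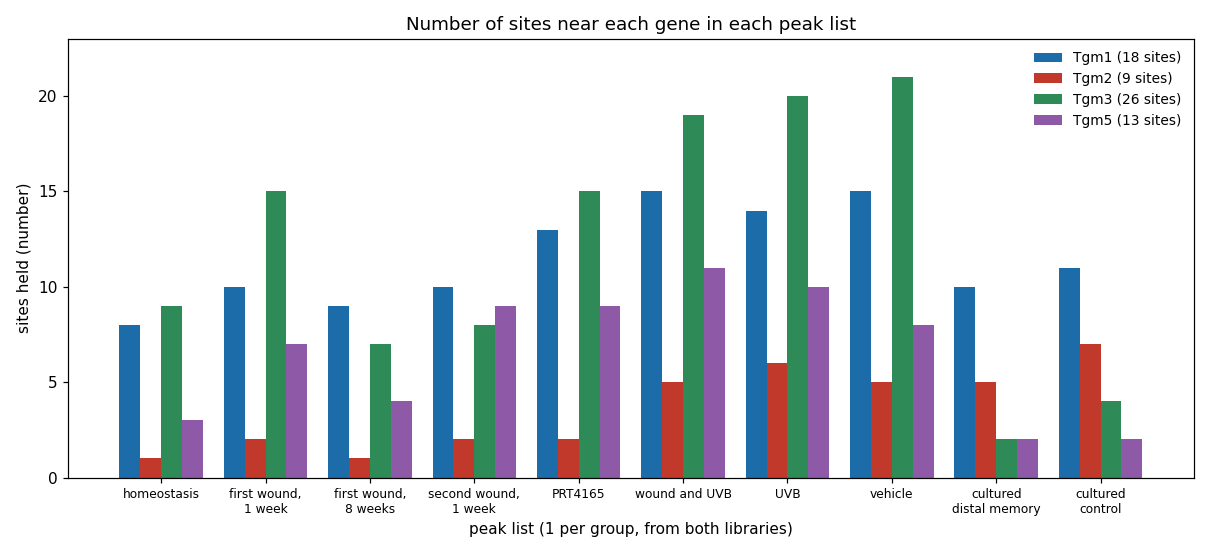
Number of sites of each gene in each peak list. Bars start at 0 and give the count of sites (vertical axis) per list (horizontal axis), coloured by gene, with no error bars since each group has 1 list. Tgm3 has 2 and 4 sites in the cultured lists and 7 to 21 in the fresh lists, whereas Tgm2 has 5 and 7 in the cultured lists and 1 to 6 in the fresh lists.

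To set a gene against its own list, its number of regions was ranked among all protein-coding genes of that list, each with its own span and 50 kb to either side; longer genes have longer windows. Tgm3 had more regions than 24.9% of genes in cultured distal memory and 37.9% in cultured control cells, against 81.3% (8 weeks) to 98.2% (vehicle) in the fresh lists. Tgm5 had more than 24.9% and 22.3% in the same cultured lists, against 42.0% (homeostasis) to 85.2% (second wound) in the fresh lists. Tgm2 ran the other way, with 53.2% and 63.2% in the cultured lists, against 21.6% (homeostasis) to 43.9% (UVB) in the fresh lists. Tgm1 stayed between 84.5% and 92.7% in all 10 lists. How often other genes differ this way between cultured and fresh lists was not tested.

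The wound course asks which sites open after a first wound, which persist, and which return after a second. A region that shares not even 1 bp with the other list is called gained in the first-named list or lost from the second-named one. At 1 week, 15 of 34 transglutaminase regions were gained over homeostasis (44.1%, 28.9 to 60.5%), against 33.1% of all regions of that list, and 2 of the 21 homeostasis regions were lost (9.52%), against 6.04%. The gains were 7 of 15 regions at Tgm3, 4 of 7 at Tgm5, 2 of 10 at Tgm1 and 2 of 2 at Tgm2. The interval includes the share of the whole list, and with lists of equal length, the longer list reduced to its strongest regions, 35% were gained and 38.1% lost. At 8 weeks, 7 of 22 regions were gained over homeostasis (31.8%, 16.4 to 52.7%), against 17.9%, and 7 of 21 were lost (33.3%, 17.2 to 54.6%), against 19.1%. Among peaks with a score of 830 or higher, taken here as a stricter reproducibility, 14.3% were gained. In the strongest 50% of each list 12.5% were gained and 12.5% lost. Tgm3 lost 5 of its 9 homeostasis regions, the start peak (site 15) and sites 3, 9, 11 and 14, and gained sites 4, 7 and 21. Tgm5 gained sites 7 and 9 and lost site 11.

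The 8-week list was also set against the 1-week list, which is the longer of the pair. No region of the 22 at 8 weeks was absent at 1 week (0%, interval up to 14.9%), against 5.50% of all regions of the 8-week list, and 13 of 34 were lost (38.2%, 23.9 to 55.0%), against 33.7%. Both intervals include the share of the whole list, and with lists of equal length 22.7% were gained and 20% lost. Of the 13, 8 were at Tgm3 and 3 at Tgm5, among them the start peak of each. Of the 4 Tgm5 sites first seen at 1 week, sites 7 and 9 were still present at 8 weeks and sites 8 and 10 were not. Site 7 (chr2:121079462-121080228), 6161 bp downstream of the Tgm5 start, had 10.8 at 1 week, 8.72 at 8 weeks and 11.3 after the second wound.

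After the second wound the balance lay toward gains at Tgm5. At Tgm3 it was nearly even over homeostasis, toward losses against 1 week and toward gains over the 8-week list. Over homeostasis, 15 of 31 second-wound regions were gained (48.4%, 32.0 to 65.2%), against 27.3%, and 7 of 21 homeostasis regions were lost (33.3%, 17.2 to 54.6%), against 12.9%. Neighbouring regions are not independent, so no difference is read from the place of these intervals. Under the stricter score the gained share was 29.4%, and in the strongest 50% of each list 22.2% were gained and 12.5% lost. At Tgm5, 6 of 9 regions were gained and 0 of 3 lost. At Tgm3, 5 of 9 were gained and 6 of 9 lost. Against the first wound at 1 week, 6 of 31 regions were gained (19.4%, 9.19 to 36.3%), against 9.85%, and 10 of 34 were lost (29.4%, 16.8 to 46.2%), against 23.1%. Of the 10, 8 were at Tgm3 (sites 7, 11, 14, 15, 18, 19, 20 and 21) and none at Tgm5, which had sites 3 and 5 in addition. Over the 8-week list, 13 of 31 were gained (41.9%, 26.4 to 59.2%), against 27.1%, and 4 of 22 were lost (18.2%, 7.31 to 38.5%), against 11.3%. Tgm5 gained 5 of 9 and lost 0 of 5, with its start peak and site 10 present again. Tgm3 gained 6 of 9 and lost 4 of 7, and its start peak was not among the gains. Counts per gene are small, and their difference was not tested.

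The vehicle list puts these gains beside another set of cells at the time point of homeostasis. Over homeostasis, 28 of 50 vehicle regions were gained (56.0%, 42.3 to 68.8%), against 50.6% of all vehicle regions, and 0 of 21 homeostasis regions were lost (interval up to 15.5%), against 1.15%. The vehicle list is the longer of the 2, and with lists of equal length 29.4% were gained and 42.9% lost. With vehicle in place of homeostasis, 0% of the transglutaminase regions of the 1-week list and 0% of those of the 8-week list were gained, and 6.45% of those of the second-wound list. All 4 Tgm5 sites gained at 1 week, the start peak included, were thus present in vehicle-treated skin.

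PRT4165 against vehicle asks what inhibiting the Polycomb ligase did. Of 40 regions in the PRT4165 list, 3 were gained over vehicle (7.5%, 2.58 to 19.9%), against 11.4% of the list, and 13 of the 50 vehicle regions were lost (26.0%, 15.9 to 39.6%), against 13.9%. The losses were 7 of 22 at Tgm3, 3 of 5 at Tgm2, 3 of 15 at Tgm1 and 0 of 8 at Tgm5. In the strongest 50% of each list the lost share was 5.88%. The 7 Tgm3 regions lost were sites 5, 9, 10, 17, 20, 22 and 24, with vehicle signal values of 3.38 to 7.78, all under that list's median of 9.05. At Tgm2 they were sites 1, 4 and 8, with 7.04, 8.80 and 7.89 in vehicle. The gains were site 4 at Tgm1, site 8 at Tgm3 (7.60) and site 6 at Tgm5 (5.77). The start peaks of Tgm1, Tgm3 and Tgm5 were present in both lists.

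UVB against vehicle gave a mixed picture. Of 51 UVB regions, 9 were gained (17.6%, 9.57 to 30.3%), against 16.2%, and 8 of 50 vehicle regions were lost (16.0%, 8.34 to 28.5%), against 11.6%. Gains were sites 1, 6, 25 and 26 at Tgm3, sites 3, 12 and 13 at Tgm5, site 5 at the upper end of Tgm2 and site 4 in the Tgm1 body. The strongest of these was Tgm5 site 13, 41.9 kb upstream of the Tgm5 start, with 11.2. Wounding with UVB against UVB alone gained 5 of 51 regions (9.80%, 4.26 to 21.0%), against 10%, and lost 5 of 51 (9.80%), against 19.3%. Among the losses were Tgm2 site 5 and Tgm5 site 13. Of the gains, Tgm5 site 1 had the lowest signal value of all 66 sites, 1.68.

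Most vehicle regions at Tgm3 and Tgm5 had no counterpart in cultured control cells. These groups also differ in wounding, time and vehicle treatment, which cannot be told apart from culture. Of 25 regions in cultured control cells, 5 were gained over vehicle (20%, 8.86 to 39.1%), against 31.2%, and of the 50 vehicle regions 31 were lost (62%, 48.2 to 74.1%), against 46.7%. The losses were 18 of 22 at Tgm3 (81.8%, 61.5 to 92.7%), 7 of 8 at Tgm5 (87.5%, 52.9 to 97.8%), 4 of 15 at Tgm1 (26.7%, 10.9 to 52.0%) and 2 of 5 at Tgm2. These intervals treat neighbouring regions of the same gene as independent, and the genes were chosen with these lists known. No difference from the 46.7% of the whole list is read from them. In the strongest 50% of each list the gained share of the 4 genes was 44.4%, on the other side of the share of the whole list. Of the gains, 4 were at Tgm2 (sites 2, 3, 5 and 7) and 1 at Tgm5 (site 12). Beside this stand the suprabasal markers with a start summit, 1 of 6 in cultured control cells (summed signal 11.7) and 4 of 6 in vehicle (30.0). Krt1 and Krt10, keratins of the differentiating layers, and Dsg1a lacked one in the cultured control list and had one with vehicle. Ivl had one in both. The fresh homeostasis and 8-week lists also had 1 of 6 (12.2 and 12.7), and Krt1 and Krt10 lacked a start summit there too. Fewer cells of a type and less open chromatin per cell cannot be told apart in such pooled cells.

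Between the 2 cultured lists, named for a memory and a non-memory region, the shares were close to those of the whole lists. Of 20 regions in cultured distal memory cells, 1 was gained (5.0%, 0.888 to 23.6%), against 7.60%, and of the 25 regions in cultured control cells 6 were lost (24%, 11.5 to 43.4%), against 22.2%. The gain was Tgm1 site 12 with 4.68, 14.5 kb upstream of the start. The losses were sites 13 and 17 at Tgm1, 7 and 8 at Tgm2, and 4 and 23 at Tgm3. Both Tgm5 regions were in both lists.

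**Figure D4:**
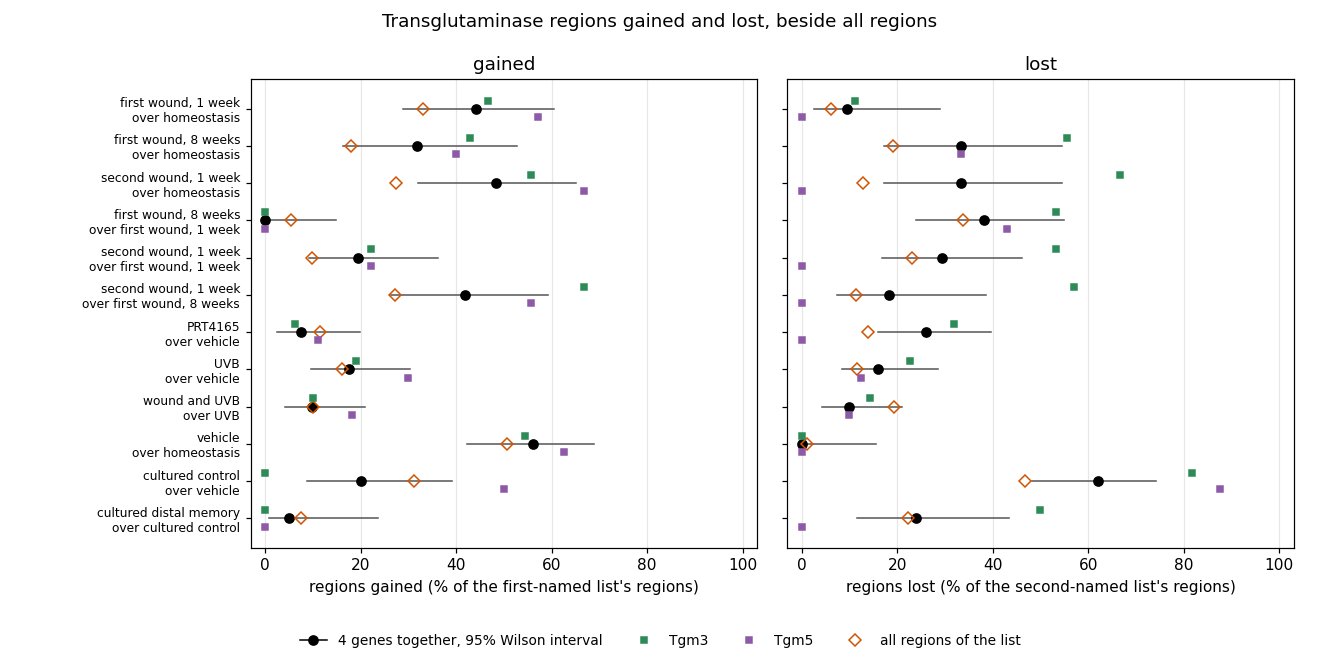
Transglutaminase regions gained (left) and lost (right) in 12 comparisons, as a percent of the regions of the first-named or second-named list (horizontal axes). Black circles with lines are the 4 genes together with their 95% Wilson interval, squares are Tgm3 and Tgm5 alone, and open diamonds are all regions of the list. For the cultured control list over vehicle, the squares for lost regions stand at 81.8% (Tgm3) and 87.5% (Tgm5), to the right of the diamond at 46.7%.

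The other genes of the cornified envelope were read from a list of 46: 5 family members, 29 substrates of the enzymes and 12 partners in proteolysis and lipid supply. The windows of Tgm7 and Epb42 overlap that of Tgm5, and windows of other neighbours in the list can overlap too. A shared region was counted once in the shares of regions. In the counts of genes it was counted for each gene, so those genes are not independent. Over all 46, the shares of regions stayed close to those of the whole lists. At 1 week over homeostasis 34.9% of their regions were gained and 7.36% lost, and at 8 weeks 21.7% were gained and 20.2% lost. After the second wound 30.7% were gained over homeostasis and 13.5% lost, against 27.3% and 12.9% of all regions. With PRT4165 over vehicle 12.9% were gained and 11% lost, against 11.4% and 13.9% of all regions. With UVB over vehicle 17.6% were gained and 9.20% lost, against 16.2% and 11.6%. In cultured control cells over vehicle 30.2% were gained and 48.5% lost; 7 genes had more gains than losses, 33 more losses than gains (71.7%) and 6 as many of each. Over all protein-coding genes 50.9% had more losses and 29.7% as many of each. The lost share lies near the 46.7% of the whole list, and with lists of equal length 45.1% were gained.

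The members with the largest balances in that last comparison were Krt10 (2 gained of 5 regions in cultured control cells, 13 lost of 16 in vehicle), Dsp, which encodes the desmosomal envelope protein desmoplakin (0 gained of 7, 10 lost of 17), and Krt2, a keratin of the upper layers (0 gained of 2, 9 lost of 11). At 1 week over homeostasis 32 of the 46 had more gains (69.6%), against 56% of all protein-coding genes, but with lists of equal length 24.1% of their regions were gained and 31.3% lost. The largest net gains were at Cers3, a ceramide synthase of the envelope's lipids, Asprv1, a protease that processes filaggrin, and Krt10, each with 6 gained and 0 lost. At 8 weeks over 1 week 35 of the 46 had more losses (76.1%), against 58.1% of all protein-coding genes, but with lists of equal length 28.9% of their regions were gained and 18.4% lost. The largest net losses were at Krt10 (6 of 9), Krt2 (5 of 9) and Lor, which encodes the envelope protein loricrin (5 of 8). With PRT4165 over vehicle 24 of the 46 had more gains (52.2%), against 21.6% of all protein-coding genes. More losses were counted at 9 (19.6%), against 33.0%. In that comparison Krt10 lost 7 of 16 and gained 1, and Cers3 gained 3 of 15 and lost 0. With UVB over vehicle 26 of the 46 had more gains (56.5%), against 39.0% of all protein-coding genes. More losses were counted at 9 (19.6%), against 17.7%. Pnpla1, a lipase needed for envelope ceramides, gained 7 of 12 regions with UVB over vehicle and lost 0. After the second wound over the 8-week list Tgm7 gained 5 of 9 and Epb42 4 of 8, in windows that overlap that of Tgm5.

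By the count of regions per 10000 regions of a list, the genes most like each member over the 10 lists, among those more than 1 Mb away, were Gnb3, Sap130 and Ammecr1l for Tgm1 (Pearson r of 0.935, 0.930 and 0.930), Eif1b, Myh14 and L3mbtl2 for Tgm2 (0.974, 0.962 and 0.957), Chd7, Vps53 and Them4 for Tgm3 (0.967, 0.967 and 0.961) and Psmb4, Acad9 and Plxna1 for Tgm5 (0.985, 0.975 and 0.975). These r describe 10 lists that share their lengths, and they are the 3 highest among 6498 to 15427 genes compared. Sap130 and Ammecr1l have the same counts in every list. Chd7 had 5 regions in cultured distal memory and 7 in cultured control cells, against 9 to 23 in the fresh lists, as Tgm3 had 2 and 4 against 7 to 22.

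The window of 50 kb decided which sites were counted. On the lower side of Tgm1 the last site inside stood 40.0 kb from the gene end (10 lists, highest signal value 23.9) and the first outside 56.2 kb (10 lists, 13), and on the upper side 49.4 kb (5 lists, 4.88) and 51.9 kb (2 lists, 3.67). For Tgm2 they stood 44.9 kb (3 lists, 8.49) and 51.2 kb (8 lists, 11.8) on the lower side, and 49.1 kb (7 lists, 12.3) and 57.9 kb (4 lists, 11.1) on the upper side. For Tgm3 they stood 48.5 kb (1 list, 7.69) and 58.8 kb (4 lists, 9.89) below, and 18.0 kb (1 list, 6.64) and 67.0 kb (1 list, 9.80) above. For Tgm5 they stood 38.3 kb (1 list, 1.68) and 54.7 kb (3 lists, 8.32) below, and 41.9 kb (1 list, 11.2) and 54.0 kb (10 lists, 14.0) above. Sites were assigned by position alone, and which gene they act on was not measured.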

How the data were processed

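Accessible chromatin was measured by ATAC-seq in 20 libraries of 10 groups, per the labels. For each group the authors deposited 1 list of peaks from both of its libraries, which by its name keeps peaks reproducible between replicates. Coordinates are in mm10, which the submitters' processing notes name. Aligner, peak caller, filters, read depth and any Tn5 shift: not given in the sources used here. Each list gives the authors' score per peak (540 or higher), the authors' signal value of enrichment, the deposited −log10 p (2.00 or higher) and a summit. No list holds values per library, so precision between libraries is unknown.

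Peaks were merged within a list into regions (strongest peak gives summit and value) and over the 10 lists into sites. Genes, starts and promoters are from RefSeq for GRCm38.p6; exons and introns were not separated. Counts were compared between 12 pairs of lists by 1 bp overlap, with Wilson 95% intervals, beside all regions of the list. The members, marker and pathway lists were chosen with earlier results of these data known. Named genes are the 4 members, neighbours at their sites, the 3 most alike genes of each member and the 3 pathway genes with the largest gained minus lost per comparison, of which the text gives a part. Alternatives changed the window (0, 20 or 100 kb), merging, overlap (50%), score (830), strength, list length, control and start window. That the score scales a reproducibility rate, with 830 for a rate of 0.01, was inferred from the list names and the lowest score, 540. The region calls, the gained and lost counts and the count of regions in a gene window were tested. This used the homeostasis list with known regions removed and made regions added. Software was Python 3.11.15 with pandas 2.3.3, numpy 2.4.6, scipy 1.17.1 and matplotlib 3.10.9.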

Additional observations from a re-analysis of the deposited data

How the results depend on the processing

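No paired analysis was possible because each deposited list pools both replicates of its group; for the same reason no replicate could be left out. The number of sites was judged by a fixed ratio, and the other values of this paragraph by their intervals. With the number of sites and the shares held, 59 of 77 alternatives left a value within that limit. With gained and lost shares of the 4 genes 143 of 174 did. All 20 alternatives of the strength within a list and all 8 of the start peaks did so too, although by −log10 p the share above the list median passed 50% in 3 lists (52 to 55%), the Tgm1 start peak was in 40.0% of lists within 500 bp and 50% under the stricter score, against 70.0%, and the Tgm5 start peak in 40.0% under the stricter score, against 60.0%. The start-peak intervals take the 10 lists as independent and are wide, 39.7 to 89.2% for Tgm1. The cause of the other moves was not tested beyond what each setting removes.

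The number of sites, 66, was 30 in the gene spans alone, 100 with 100 kb, 120 with summits chained within 150 bp, 29 in the strongest 50% of each list and 41 with lists of equal length. Gene spans alone put the held share at 10% in cultured distal memory and 13.3% in cultured control cells. With the strongest 50% it was 31.0% after the second wound, 62.1% for wound and UVB and 58.6% for vehicle, and with chained summits 60.0% for wound and UVB and 61.7% for UVB. With lists of equal length it was 51.2% in homeostasis, 51.2% at 8 weeks, 43.9% with PRT4165, 43.9% with wound and UVB, 48.8% with UVB and 41.5% with vehicle, so the excess of sites in the long lists was not seen there.

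With vehicle as control, the 1-week list gained 0% and lost 32.0%, the 8-week list gained 0% and lost 58.0%, and the second-wound list gained 6.45%. With lists of equal length, the 1-week list lost 38.1% of homeostasis, the 8-week list gained 22.7% and lost 20% against 1 week, and vehicle gained 29.4% and lost 42.9% against homeostasis. In the gene spans alone, the second-wound list gained 66.7% and lost 70.0% against homeostasis, gained 41.7% and lost 50% against 1 week, and gained 66.7% and lost 42.9% against 8 weeks; the cultured control list lost 84.0% of vehicle (74.3% with 20 kb), and cultured distal memory gained 0% over cultured control (also 0% under the stricter score). Under the stricter score, gains over homeostasis were 14.3% at 8 weeks and 29.4% after the second wound. With the strongest 50%, gains and losses against homeostasis were 12.5% each at 8 weeks and 22.2% and 12.5% after the second wound; PRT4165 lost 5.88% of vehicle, UVB gained 33.3%, cultured control cells gained 44.4% over vehicle and cultured distal memory cells lost 11.1% of cultured control (8.33% with 20 kb).

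For the 46 pathway genes only the window of 20 kb and lists of equal length were tried. Their shares moved with lists of equal length, as follows, and not with 20 kb. Against homeostasis 24.1% were gained and 31.3% lost at 1 week, and 29.4% were lost after the second wound. The vehicle list gained 30.3% and lost 34.4% against homeostasis. At 8 weeks 28.9% were gained and 18.4% lost against 1 week. After the second wound 25.2% were gained and 18.4% lost against 1 week, and 22.4% gained and 27.1% lost against 8 weeks. Against vehicle, 13.2% were lost with UVB and 45.1% gained in cultured control cells. With wound and UVB 19.0% were gained and 13.1% lost against UVB. In cultured distal memory 20.1% were gained and 10.1% lost against cultured control. The median share over all regions, of the 12 comparisons in both directions, was 20.3% with an overlap of 50%. That is higher than with an overlap of 1 bp and was counted as a move. A stricter overlap can only raise this share. Read depth, which would limit the detection of weak peaks, is not given.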
